A study of Mus musculus with 11 samples.

Results

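The reelin pathway was followed through 8 of the 24421 genes listed for astrocytes sorted from 4 regions of the mouse brain. The genes encode the ligand (Reln), its receptors (Lrp8 and Vldlr), the adaptor that carries the signal inside the cell (Dab1), a kinase of that adaptor (Fyn), adaptors that bind it (Crk and Crkl) and a dynein regulator joined to the pathway (Pafah1b1). They were picked as members of the pathway, with the low brainstem level of Dab1 already known, so the Dab1 levels are given as a description and tests are given for the other 7 genes.

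The libraries came from the brainstem (BS, n = 3), cortex (CX, n = 2), hippocampus (HC, n = 3) and olfactory bulb (OB, n = 3) of 16-week-old mice of both sexes on a C57BL/6 background. Every mouse carried the Aldh1l1-eGFP transgene on a bacterial artificial chromosome, and no treatment was named for any group. The transgene places eGFP under control of the astrocyte gene Aldh1l1, and cells were collected by fluorescence, so any other cell that carried or bore eGFP would have been collected too. The labels do not state whether libraries of a region came from separate animals, so the p-values measure the spread between these libraries, which may be partly technical.

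Reelin is a large secreted glycoprotein that binds the lipoprotein receptors encoded by Lrp8 and Vldlr. Binding clusters the receptors and lets Src family kinases, chiefly Fyn, phosphorylate Dab1, which then recruits Crk, CrkL and phosphoinositide 3-kinase and is degraded. In the developing forebrain and hindbrain the pathway sets the position of migrating neurons, and in the adult brain, where interneurons and olfactory mitral cells are known sources of reelin, it acts at synapses.

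The reads counted on genes, recovered from the deposited values, numbered 2830746 to 14151670 in each of the 11 libraries, with a median of 5552215. These are not the sequenced reads, of which the paper reports more per sample. Values are normalised read counts, that is, reads divided by a single size factor per library, and 3 reads were worth 1.10 in the library with most reads and 6.31 in the one with fewest. The ribosomal transcript Rn45s took 17.96 to 25.6% of reads in the CX and BS libraries and 0.966 to 2.93% in the OB and HC libraries. Aldh1l1 itself was present in every library, at 542 to 1317 (HC replicate 1 lowest, CX replicate 1 highest), and Gfap, the intermediate filament of astrocytes, at 889 to 4028. The summed value of 8 astrocyte markers was 230526 to 275534 in OB, 270999 to 461723 in HC, 555938 to 630026 in CX and 93288 to 277780 in BS, and none of the 8 was at 0 in any library. Most of this sum was a single gene, Slc1a2, at 541892 in CX replicate 1 and 61764 in BS replicate 1. The 8 markers did not share an order of regions. The Aqp4 mean was highest in BS (14007, against 7584 to 12589 in the other regions), while the Slc1a3 mean was lowest in BS, at 4470. Transcripts of other cells were present as well. The sum of 8 oligodendrocyte markers was 51519 to 88511 in BS against 9491 to 39458 elsewhere, and that of 7 choroid plexus markers was 69759 to 141596 in HC and 50465 to 237043 in BS against 199 to 4818 in OB and CX.

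Dab1 was the member with the widest regional range. Its normalised read count was 978, 1174 and 1124 in the OB libraries, 949, 1553 and 1165 in HC, 1373 and 1523 in CX, and 86.2, 120.2 and 118 in BS. The 3 BS libraries lay far below the other 8. HC overlapped both OB and CX, while both CX libraries were above all 3 of OB. The region means were 1448 ± 106 (SD, n = 2) in CX, 1222.5 ± 306 (n = 3) in HC, 1092 ± 102 (n = 3) in OB and 108 ± 19.0 (n = 3) in BS. The mean of the 8 other libraries, 1230 ± 230, was 11.4-fold the BS mean, and the lowest of the 8 was 7.90-fold the highest BS library. On the log2(value + 1) scale the difference of BS from the other regions was -3.49, which placed Dab1 49th from the lowest among the 13875 genes that passed the low-count filter, which keeps genes with enough reads in as many libraries as the smallest region has. The BS level was low but above the counting floor, with 82, 60 and 56 reads in the 3 libraries. All 8 pathway genes passed the filter. In these bulk libraries, fewer cells of a type and less RNA per cell could not be told apart.

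**Figure D1:**
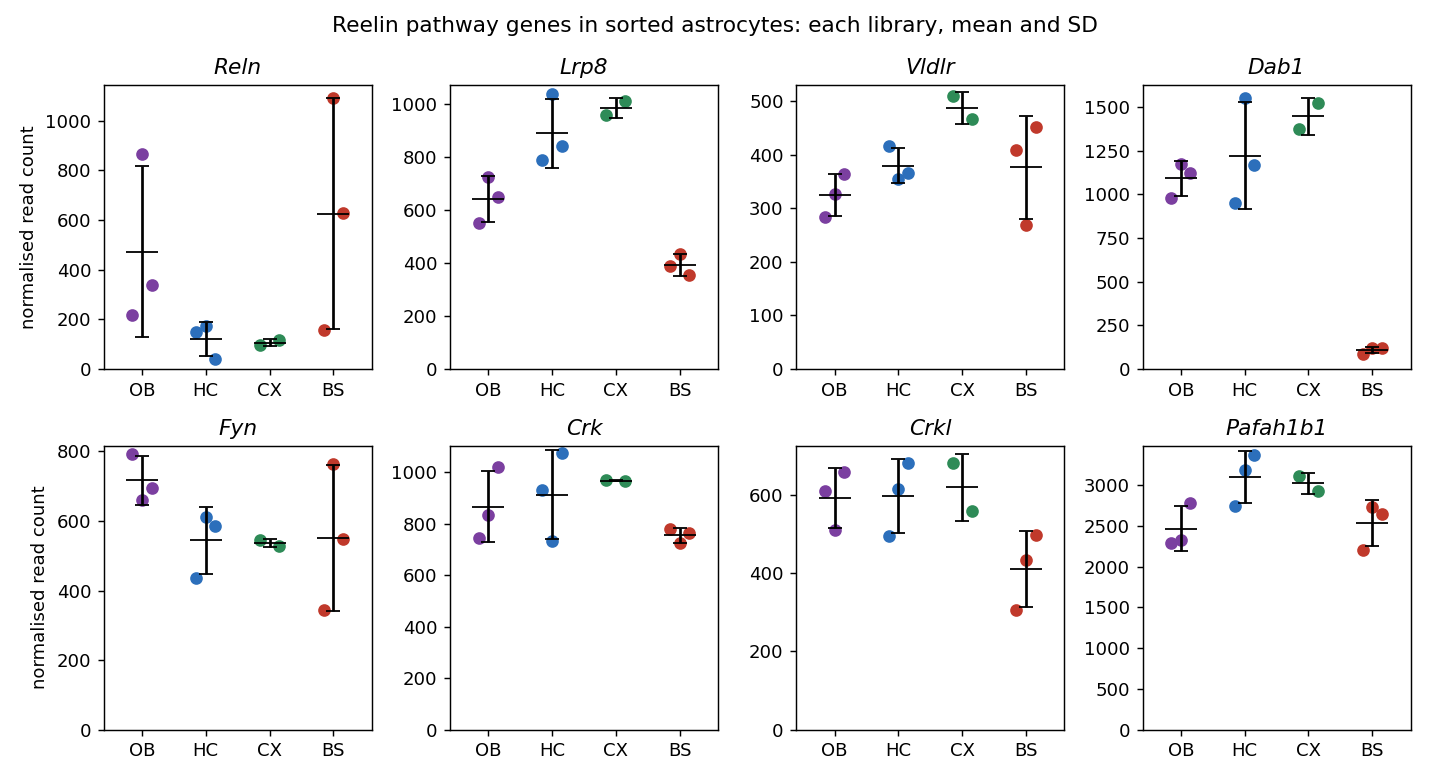
Normalised read count (y axis, linear from 0) of the 8 reelin pathway genes in each library, by region (x axis); points are libraries, the long bar is the mean and the error bar the SD. Dab1 is at 86.2 to 120.2 in the BS libraries and at 949 to 1553 in the others, Lrp8 is at 354 to 435 in BS and 553 to 1039 in the others, and Reln ranges from 158 to 1089.8 within BS alone.

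Dab1 lies on mouse chromosome 4 (GRCm38, chr4:103619359-104744844, + strand), and its annotated exons cover 7908 bases. Per kilobase of exon its normalised level was 138 ± 12.8 in OB, 155 ± 38.7 in HC, 183 ± 13.4 in CX and 13.7 ± 2.40 in BS. Lrp8 lies 3.06 Mb farther along the same strand, at chr4:107802261-107876840. In both genes all 3 BS libraries were below all others, so the stretches of their RefSeq promoters (GRCm38.p6) outside annotated exons are shown. They run 5′ to 3′ on the + strand, with CG dinucleotides in capitals. Crk and Crkl also had their lowest mean in BS, but their BS libraries overlapped others, and their promoters are not shown. RefSeq places Dab1 starts at positions far apart, and the stretches are chr4:103619250-103619358, chr4:104367470-104367537 and, for the first Lrp8 start, chr4:107802635-107802841, of which the last 2 fall inside the span of their gene as GENCODE draws it.
Dab1, first start: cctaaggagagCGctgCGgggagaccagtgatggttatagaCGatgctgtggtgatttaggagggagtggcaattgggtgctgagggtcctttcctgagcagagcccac
Dab1, second start: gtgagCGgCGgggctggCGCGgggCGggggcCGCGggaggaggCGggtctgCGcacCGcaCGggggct
Lrp8, first start: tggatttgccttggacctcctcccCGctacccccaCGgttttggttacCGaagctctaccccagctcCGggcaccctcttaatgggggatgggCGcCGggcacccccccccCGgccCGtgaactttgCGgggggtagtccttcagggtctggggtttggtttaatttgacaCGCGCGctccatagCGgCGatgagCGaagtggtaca
In the full windows of 250 bases before each start, the first Dab1 window held 10 CG dinucleotides at 56.4% G or C, the second 40 at 78.0%, and the first Lrp8 window 18 at 62.4%, against a median of 6 and 52.4% over all 32851 promoter windows. The recognition core of nuclear factor I (TTGGC or its reverse complement GCCAA, both strands searched), a factor family present in astrocytes, occurred 1 time in each Dab1 window, in the part that is annotated as exon, and 0 times in the first Lrp8 window, where 41.5% of all windows held at least 1. None of the 3 windows held TAATTA, the core of many homeodomain sites, which 4.84% of all windows held. These matches describe letters in the windows and not occupied sites.

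The ligand Reln varied more among libraries of a region than any other member. Its normalised read count was 216, 865 and 337 in OB, 147, 174 and 41.5 in HC, 95.5 and 117 in CX, and 158, 1089.8 and 629 in BS. OB replicate 2 and BS replicates 2 and 3 were high, while BS replicate 1 fell within the HC range, so BS and OB overlapped and BS and HC did too. The means were 626 ± 466 in BS, 473 ± 345 in OB, 121 ± 69.8 in HC and 106 ± 14.9 in CX, and per kilobase of exon (23738 bases at chr5:21884454-22344702, - strand) they were 26.4, 19.9, 5.08 and 4.47. The 4 region means of Reln differed in a moderated F test (limma, adjusted p = 0.0400). Each region was then set against the samples of the other 3, and a gene was called at an unadjusted p below 0.01 with a fold above 1.5, p-values adjusted over all 13875 genes standing beside. By that rule no region was called for Reln: the log2 difference was 1.47 (SE 0.73) for BS, with unadjusted p = 0.0637 and adjusted p = 0.265, 1.11 (SE 0.77) for OB and -1.57 (SE 0.73) for HC. Between pairs of regions, the BS level was higher than HC by 2.21 on the log2 scale (SE 0.65, adjusted p = 0.0691) and higher than CX by 2.17 (SE 0.73, adjusted p = 0.0703), and OB was higher than HC by 1.95 (SE 0.65, adjusted p = 0.0906). These 3 pairs were called on the unadjusted p, and none had an adjusted p below 0.05 in limma. The BS and HC call was lost without HC replicate 3, BS replicate 2 or BS replicate 3 (unadjusted p up to 0.0273), the BS and CX call without either CX replicate, BS replicate 2 or 3, OB replicate 3 or HC replicate 2 (up to 0.0516), and the OB and HC call without OB replicate 2 or 3, HC replicate 3, either CX replicate or BS replicate 3 (up to 0.0643). The OB and HC call was also lost in DESeq2, with scaling to Aldh1l1, with a pseudocount of 0.25 and without the low-count filter, and the last 2 of these also lost the BS and CX call. The F test missed its threshold without OB replicate 2 or 3, HC replicate 3, either CX replicate, or BS replicate 2 or 3, where adjusted p was 0.0545 to 0.107, and without the low-count filter (adjusted p = 0.0710), and was 0.00415 without BS replicate 1.

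Markers of neurons known to make reelin were also measured in the same libraries. Cdhr1, a cadherin of mitral and tufted cells, was at 141, 471 and 125 in the OB libraries, highest where Reln was highest, and at 0 in all BS and CX libraries. The summed value of 5 mitral and tufted cell markers was 206 to 669 in OB, 109 to 221 in HC, 143 to 218 in CX and 14.0 to 25.2 in BS, with Tbx21 at 0 in every library but OB replicate 1, where it had 4 reads. Slc17a7 alone, at 143 and 218, made up the whole CX sum. It was at 107 to 219 in HC, nearly the whole sum there, and Eomes was at 0 in every HC and CX library. The sum of 7 inhibitory interneuron markers was 1897, 1514 and 1392 in OB replicates 1, 2 and 3, highest where Reln was lowest, and 115 to 393 elsewhere. The markers of this list did not share that order. Npy (936, 607 and 720), Gad1 and Gad2 were highest in OB replicate 1. Slc32a1 (32.6, 76.6 and 31.2), Sst and Dlx1 were highest in OB replicate 2, where Reln was highest. Lhx6 was at 0 in every OB and BS library and Dlx1 at 0 in every BS library. Of 5 Cajal-Retzius cell markers, whose sum was 200 to 341 in OB, 88.6 to 128 in HC, 33.9 to 36.8 in CX and 140 to 200 in BS, Trp73 was at 0 in OB and CX and Lhx1 was at 0 in all libraries but BS replicate 3. The BS library with the lowest Reln value, replicate 1, held the highest value of the choroid plexus transcript Ttr, 221911 against 46376 and 108256, and the lowest Slc1a3 value, 1953 against 6315 and 5142. The part of these cells in the Reln differences was not tested.

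Lrp8, which encodes the receptor also known as apolipoprotein E receptor 2, was the tested member with a clear regional difference. Its normalised read count was 553, 727 and 649 in OB, 789, 1039 and 843 in HC, 959.85 and 1013 in CX, and 388, 435 and 354 in BS. All 3 BS libraries were below all 8 others, a separation shared by Dab1 among the members and seen in 4.19% of the 13875 genes. The region means fell in the order CX (987 ± 37.9), HC (890.4 ± 132), OB (643 ± 87.3) and BS (392.1 ± 40.7). BS was lower than the other regions together by 1.04 on the log2 scale (SE 0.19, limma unadjusted p = 8.745e-05, adjusted p = 0.0061), and the 4 regions differed in the F test (adjusted p = 0.000347).

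The order of the Lrp8 means was resolved in part. The BS level was exceeded in HC by 1.18 on the log2 scale (SE 0.17, adjusted p = 0.000694), in CX by 1.33 (SE 0.19, adjusted p = 0.000374) and in OB by 0.71 (SE 0.17, adjusted p = 0.0111). OB and CX differed by 0.63 (SE 0.19) at unadjusted p = 0.00524 but adjusted p = 0.0800, and this call was lost without OB replicate 1 or 3, without either CX replicate (unadjusted p 0.0125 to 0.0397) and with reads scaled to the total without Rn45s. With every library scaled to the same Aldh1l1 value, the calls of OB against CX, OB against BS and CX against BS were lost and that of HC against BS was kept. The neighbours OB and HC (difference -0.47, SE 0.17, unadjusted p = 0.0155) and HC and CX (difference -0.16, SE 0.19, unadjusted p = 0.423) did not differ beyond their spread at the threshold used. Among all genes 15.9% were called between OB and BS, 7.6% between HC and BS, 13.5% between CX and BS, 8.07% between OB and CX and 9.92% between OB and HC in limma. The lower Lrp8 level in BS passed the threshold with each single library left out, at -1.12 to -0.97 and adjusted p of 0.0022 to 0.0491, and in edgeR (adjusted p = 0.0096) and DESeq2 (adjusted p = 4.63e-05). With every library set to the same Aldh1l1 value, a scaling under which the median BS difference of all genes was 0.21 in place of 0.02, the Lrp8 difference in BS was -0.85 and was no longer called (unadjusted p = 0.0113, adjusted p = 0.179).

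Vldlr, the other reelin receptor, did not follow Lrp8. Its normalised read count was 285, 326 and 363 in OB, 416, 355 and 366 in HC, 509 and 466 in CX, and 408, 268 and 453 in BS. Both CX libraries were above all others, as in 5.02% of genes, while BS spanned the OB and HC ranges. CX differed from the other regions by 0.45 on the log2 scale (SE 0.20, limma unadjusted p = 0.0416, adjusted p = 0.478) and BS by -0.05 (SE 0.20, adjusted p = 0.923), and neither was called. With every library set to the same Aldh1l1 value the CX difference of Vldlr was -0.042. Under that scaling the median CX difference of all genes was -0.51 in place of -0.03, so Vldlr remained above that median. Levels per kilobase of exon (chr19:27216484-27254231, 10068 exon bases) were 32.2 ± 3.90 in OB, 37.6 ± 3.22 in HC, 48.4 ± 3.0 in CX and 37.4 ± 9.54 in BS, against 61.2 ± 8.31, 84.7 ± 12.5, 93.8 ± 3.61 and 37.3 ± 3.87 for Lrp8 with 10514 exon bases.

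The balance of the receptors, taken as Lrp8 over Vldlr per kilobase of exon within a library, was 1.71 to 2.14 in OB, 1.82 to 2.80 in HC, 1.81 to 2.08 in CX and 0.748 to 1.55 in BS. The 3 BS values, 0.911, 1.55 and 0.748, were below all 8 others, and BS replicate 2 was nearest to them. The mean ratio was 1.07 ± 0.424 in BS and 1.90 ± 0.215, 2.27 ± 0.496 and 1.94 ± 0.195 in OB, HC and CX. Since this ratio was chosen after the Lrp8 difference was seen, it is a description with no test.

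**Figure D2:**
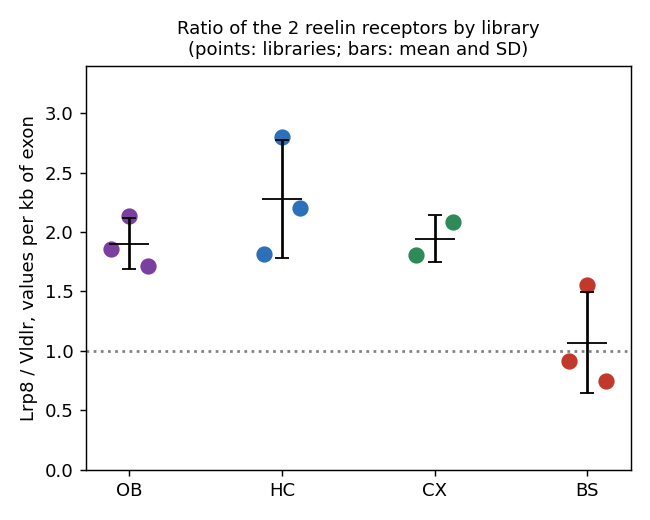
Ratio of Lrp8 to Vldlr normalised read counts per kilobase of exon (y axis, linear from 0) in each library of the 4 regions; points are libraries, the long bar is the mean, the error bar the SD and the dotted line marks equal levels. The 3 BS libraries lie at 0.748 to 1.55 and the other 8 at 1.71 to 2.80.

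The genes that act on and after Dab1 showed smaller differences. Fyn (chr10:39368855-39565381, + strand), the Src family kinase of Dab1, was at 794, 659 and 696 in OB, 435, 612 and 584 in HC, 545 and 529 in CX, and 344, 763 and 549 in BS. Its BS libraries covered nearly the whole range, and OB, with the highest mean (716 ± 69.6), differed from the other regions by 0.42 on the log2 scale (SE 0.20, limma unadjusted p = 0.0540, adjusted p = 0.297) and was not called. Crkl (chr16:17451987-17487434, + strand), an adaptor that binds phosphorylated Dab1, was at 610.3, 510.0 and 659 in OB, 495, 617 and 681 in HC, 681 and 558 in CX, and 306, 433 and 497 in BS. The highest BS library was just above the lowest HC library, so the groups overlapped by that pair alone. BS was lower by 0.56 on the log2 scale (SE 0.17, limma unadjusted p = 0.0044, adjusted p = 0.0647), which fell short of the fold of 1.5, and it passed that fold without OB replicate 2, HC replicate 1, BS replicate 2 or BS replicate 3, at -0.71 to -0.60, while without BS replicate 1 the difference was -0.36 (unadjusted p = 0.0482).

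Crk (chr11:75679259-75706908, + strand), the founding member of the same adaptor family, was at 745, 835 and 1018 in OB, 932, 733 and 1074 in HC, 969 and 966 in CX, and 778, 723 and 764 in BS. The BS values were close together, and 2 of the 3 lay inside the HC range, with a difference of -0.26 (SE 0.14, limma adjusted p = 0.332). Pafah1b1 (chr11:74673949-74724670, - strand), which encodes the dynein regulator Lis1, was at 2290.2, 2320.2 and 2779 in OB, 2746, 3180.4 and 3373 in HC, 3112 and 2932 in CX, and 2209, 2731 and 2649.9 in BS. All 4 regions overlapped at least 1 other region, and the BS difference was -0.16 (SE 0.15, adjusted p = 0.604). Per kilobase of exon Pafah1b1 had the highest level of the 8 genes in every region, from 256 in OB to 322 in HC.

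Of the 7 tested members, 1 was called in BS against the other regions, Lrp8 as lower, where 9.03% of all genes were called and 5.05% were called as lower. None was called in OB, HC or CX, where 8.04%, 1.28% and 2.77% of all genes were called. An unadjusted limma p below 0.05 was reached by Lrp8 and Crkl in BS and by Vldlr in CX, and by no member in OB or HC. Among all genes it was reached by 21.3% in BS, 9.89% in CX, 17.6% in OB and 5.69% in HC. DESeq2 called 1 member in HC, Reln at -1.86 (adjusted p = 0.245), and edgeR called none in OB, HC or CX. In the F test 2 of the 7, Lrp8 and Reln, differed among the regions at an adjusted p below 0.05, against 16.5% of all genes. The median log2 difference of the 7 was 0.00058 in OB, 0.10 in HC, 0.21 in CX and -0.19 in BS, beside 0.02, 0.02, -0.03 and 0.02 over all genes. The 4 comparisons use the same 11 libraries and are not independent of one another.

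**Figure D3:**
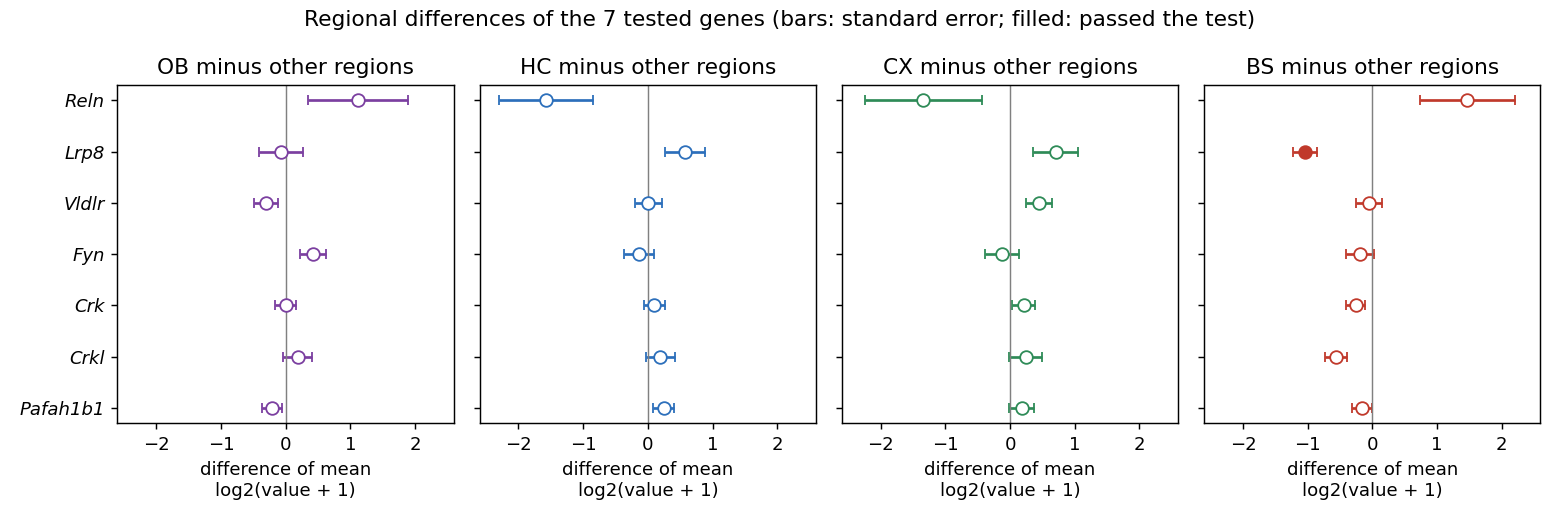
Difference of mean log2(value + 1) between 1 region and the samples of the other 3 (x axis) for the 7 tested genes (y axis), with 1 panel per region; bars are standard errors and a filled point passed the threshold. Lrp8 in BS, at -1.04, is the filled point, and the Reln estimates carry the widest bars, with an SE of 0.73 to 0.91.

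Genes whose levels ran most like those of Dab1 were sought across the 11 libraries among 11292 genes with a mean value of at least 20. Among the highest Pearson correlations on the log2 scale were those of Lhx2 (0.992), C030018K13Rik (0.990), Chst2 (0.988) and Tenm3 (0.986). Lhx2 encodes a transcription factor that patterns the forebrain, Chst2 a sulfotransferase of carbohydrate chains and Tenm3 a teneurin, an adhesion protein of axon targeting. These 4 were high in OB, HC and CX and low in BS, so the correlations largely restate 1 difference between BS and the other regions over points that share region and library. Lhx2 was at 1060 to 2222 in the other libraries and had 7 reads in all in BS, at values of 2.10, 8.01 and 2.10. C030018K13Rik had no read in any BS library, where 3 reads would correspond to 3.15, 6.01 and 6.31, and was at 126 to 254 elsewhere. Dab1, with Chst2 (518 ± 156 in BS against region means of 4854 to 8169) and Tenm3 (398 ± 87.3 against 1641 to 1706), kept a measurable BS level.

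Of the other pathway members Lrp8 was nearest to Dab1, with r = 0.913 and rank 105, followed by Crkl at 0.805 and Crk at 0.550, and Reln was at -0.462. Correlations with Dab1 here, too, largely restate the difference between BS and the other regions and add no separate support. Slc1a3, the astrocyte glutamate transporter GLAST, had r = 0.953, with 4469.95 ± 2257 in BS against 20962 to 32563 as region means elsewhere, and was the 1 of 8 astrocyte markers called as lower in BS. Scaling to Aldh1l1 left the Dab1 difference at -3.30. The Aldh1l1 values were 623, 1256 and 657 in BS and 542 to 1317 in the other libraries, and the part of astrocyte content in the Dab1 difference was not tested.

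**Figure D4:**
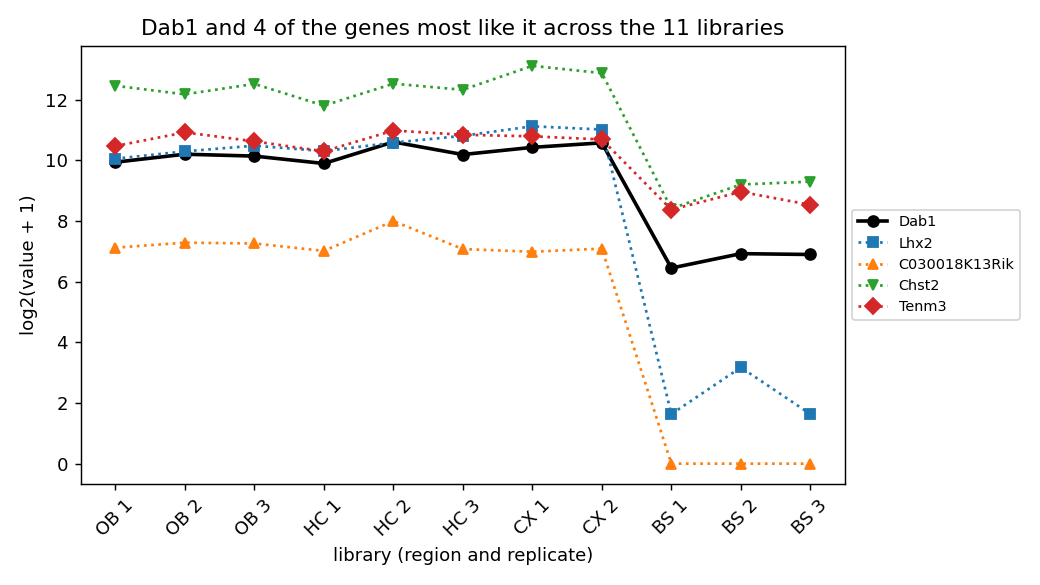
Level as log2(value + 1) (y axis) of Dab1 (black) and 4 of the genes most correlated with it, in each of the 11 libraries (x axis, region and replicate); lines join the libraries of a gene only to guide the eye. All 5 genes drop in the 3 BS libraries, C030018K13Rik to 0 and Dab1 to 86.2 to 120.2 in linear values.

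The wider pathway was described with 59 further genes, of which 57 passed the low-count filter. Lrp2, the receptor megalin, had 12 reads in all and did not pass. In BS 9 of the 57 were called (15.79%, against 9.03% of all genes), 4 as higher and 5 as lower, and in OB 7 were called (12.28%, against 8.04%), 4 as higher and 3 as lower. In CX 3 were called (5.26%, against 2.77%) and in HC 1 (1.75%, against 1.28%). In BS 3.98% of all genes were called as higher and 5.05% as lower, and in OB 4.15% and 3.89%. At an adjusted p below 0.05 in limma the counts were 6 in BS and 5 in OB, against 5.31% and 4.54% of all genes, and 0 in CX and HC, against 0.0144% and 0%. An unadjusted p below 0.05 was reached by 23 of the 57 in BS, 11 in OB, 11 in CX and 4 in HC, against 21.3%, 17.6%, 9.89% and 5.69% of all genes, and edgeR and DESeq2 also gave 0 in CX and HC at an adjusted p below 0.05. In BS and OB the adjusted counts were 3 and 5 in edgeR, against 572 and 608 of all 13875 genes. DESeq2 gave 9 and 8, against 1093 and 1203 of all genes. The median difference of the 57 was -0.04 in BS and 0.05 in OB, beside 0.02 in both for all genes.

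Among ligands and receptors in BS, Lrp4, a relative of the reelin receptors known from the neuromuscular junction, was lower, at 730.2 ± 439 against 2565 ± 547 in the other 8 libraries (log2 difference -1.94, SE 0.29, limma adjusted p = 0.0014). Apoe, the lipid carrier that binds the same receptors, was lower as well, at 11975 ± 4437 against 23378 ± 4682 (-1.0, adjusted p = 0.0511), and lost its call without BS replicate 1 or 3 (unadjusted p up to 0.0254). Itga3, an integrin subunit linked to reelin, was higher at 109.9 ± 47.0 against 36.3 ± 23.6 (1.71, adjusted p = 0.0796), a call lost without any 1 OB library, CX replicate 2, BS replicate 1 or BS replicate 3 (up to 0.0402) and with scaling to Aldh1l1. The Itga3 mean was 63.6 in HC, 19.0 in OB and 21.3 in CX. Choroid plexus markers were also high in HC and BS, and their part in the Itga3 values was not tested. Adamts5, a protease of the family that cleaves reelin, was higher in BS, at 110.3 ± 32.4 against 33.4 ± 11.9 (1.72, SE 0.36, adjusted p = 0.0131). The Lrp4 and Adamts5 calls passed under each alternative and with each library left out.

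Inside the cell, the Src family kinase Yes1 was lower in BS, at 348 ± 104 against 561 ± 66.1 (log2 difference -0.72, limma adjusted p = 0.0325), and Dab2, an endocytic adaptor related to Dab1, was higher, at 1241 ± 346 against 593 ± 235 (1.11, adjusted p = 0.0386). The Dab2 mean was 810 in HC, 522 in OB and 376 in CX, and BS replicate 1 was highest at 1628. Choroid plexus markers were also high in HC and BS, and their part in the Dab2 values was not tested. The kinase Akt2 was lower in BS, at 367 ± 79.0 against 736 ± 241 (-0.96, adjusted p = 0.0441), and higher in CX, at 1076 ± 115 against 538 ± 169 (1.06, adjusted p = 0.303). Calls for Yes1 and Dab2 in BS were lost without BS replicate 1 (-0.47 and 0.90, unadjusted p = 0.0149 and 0.0179) and that for Akt2 without BS replicate 2 (-0.78, unadjusted p = 0.0205), and all 3 were lost with scaling to Aldh1l1. Map1b, a microtubule-associated protein abundant in neurons, was higher in BS, at 4287 ± 1014 against 1826 ± 612 (1.28, adjusted p = 0.0189), and Cdk5r1, the p35 activator of Cdk5, was lower, at 24.8 ± 10.9 against 58.7 ± 23.3 (-1.23, adjusted p = 0.0847). The Cdk5r1 call was lost in edgeR, without Rn45s in the total, with a block for the replicate number, with scaling to Aldh1l1, and without OB replicate 1 or 2, either CX replicate, or BS replicate 1 or 2 (unadjusted p up to 0.0653). Of 9 neuron markers 4 were called as higher and 3 as lower in BS, with sums of 2638 to 3850 in BS and 1331 to 3049 elsewhere, and their part in the Map1b and Cdk5r1 values was not tested.

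In OB the largest difference of the list was that of Dcx, the microtubule protein of migrating neuroblasts, at 349 ± 74.3 against 24.3 ± 14.5 (log2 difference 3.97, SE 0.47, limma adjusted p = 0.000282). It is itself 1 of 5 neuroblast markers, whose sum was 533 to 863 in OB and 134 to 419 elsewhere, and the part of such cells was not tested. Efnb2, an ephrin that joins the reelin receptor complex, was at 190 ± 37.5 against 60.8 ± 18.5 (1.67, adjusted p = 0.0046), its relative Efnb1 at 39.4 ± 21.4 against 9.06 ± 3.59 (1.90, adjusted p = 0.0598), and the adhesion protein N-cadherin, Cdh2, at 2926 ± 462 against 1518 ± 494 (1.01, adjusted p = 0.0486). Lower in OB were the tau gene Mapt, at 389 ± 6.38 against 671 ± 117 (-0.77, adjusted p = 0.0175), the reelin-cleaving protease Adamts4, at 19.6 ± 10.2 against 78.9 ± 37.8 (-1.90, adjusted p = 0.0424), and the phosphoinositide 3-kinase subunit Pik3cb, at 59.0 ± 19.0 against 121 ± 37.0 (-1.01, adjusted p = 0.0916). Adamts4 is also expressed by oligodendrocytes, whose marker sum was lowest in OB, at 9491 to 15730, and that part was not tested. The Adamts4 and Cdh2 calls were lost without OB replicate 3 (unadjusted p = 0.0178 and 0.0172) and the Efnb1 call without OB replicate 1 or 2 (up to 0.0282). The Pik3cb call was lost without OB replicate 2 or 3, HC replicate 1 or any 1 BS library (up to 0.0501), and also without Rn45s in the total, with the replicate block and with scaling to Aldh1l1.

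In CX the amyloid precursor gene App, whose product binds reelin, was lower, at 1258 ± 0.839 against 2549 ± 682 (log2 difference -0.97, limma adjusted p = 0.291), and Cdk5r2, the p39 activator of Cdk5, was higher, at 99.5 ± 11.04 against 38.3 ± 18.5 (1.49, adjusted p = 0.347). In HC the Lis1 partner Nde1 was higher, at 284.5 ± 33.0 against 182 ± 37.4 (0.66, adjusted p = 0.653). None of these reached an adjusted p below 0.05, and the App, Akt2 and Cdk5r2 calls in CX were lost when either CX library was left out (unadjusted p up to 0.0312, 0.0521 and 0.0710), while the Nde1 call was lost without HC replicate 2 or 3 (up to 0.0314). The Cdk5r2 call was also lost in edgeR, without the low-count filter and without 6 of the 9 other libraries. The Akt2 and Cdk5r2 calls in CX were lost without Rn45s in the total, with the replicate block and with scaling to Aldh1l1, and the Nde1 call with the replicate block.

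**Figure D5:**
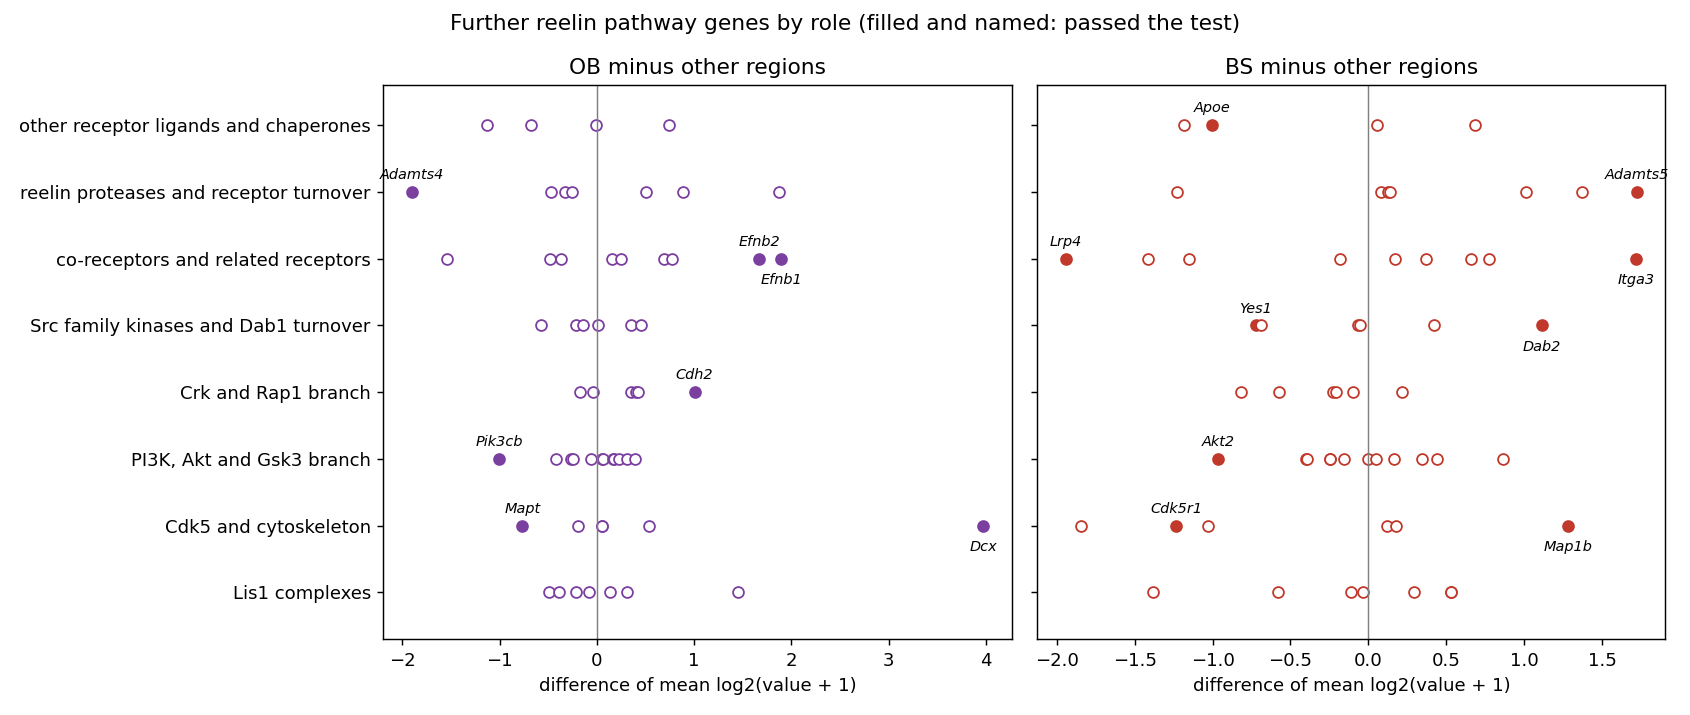
Difference of mean log2(value + 1) (x axis) for the 57 further reelin pathway genes, grouped by role (y axis), for OB (left) and BS (right) against the samples of the other 3 regions; filled, named points passed the threshold. In BS 4 filled points lie above 0 and 5 below, with Lrp4 lowest at -1.94, and in OB 4 lie above and 3 below, with Dcx highest at 3.97.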

How the data were processed

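RNA of FACS-sorted Aldh1l1-eGFP+ cells was made into rRNA-depleted libraries from 5 ng of total RNA by the authors (Trio RNA-Seq System). Per the submitters' processing notes, reads were aligned to mm10 with STAR 2.5.0a and normalized with DESeq2 1.20.0. The study's methods name Rsamtools, GenomicFeatures and GenomicAlignments for counting on UCSC transcripts, and the strand setting is not given in the sources used here. The deposited values, a signal with one table per library, are read counts divided by 1 size factor. Dividing them by the step of each library, its value of 1 read, gave whole reads (within 0.01) for 100% of entries. Of 24421 rows, 2 pairs of rows share a symbol that had been turned into a date and were kept apart.

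Values were tested as log2(value + 1) with limma 3.58.1 (trend, two-sided) on the 13875 genes kept by filterByExpr of edgeR 4.0.16, each region against the samples of the other 3. Adapted from the study, a call needed p below 0.01 (here unadjusted), a fold above 1.5 and, in some region, 2 or more replicates above 5, here on the deposited values and not as RPM, and Benjamini-Hochberg adjusted p-values over all 13875 genes are given beside. A fit with a mean for each region gave the F test (adjusted p below 0.05) and pairs of regions. Fold changes on this scale understate the change of low genes. Coordinates and exon lengths are from GENCODE vM21 (GRCm38), whose exons of Reln overlap those of Gm10475 on the other strand over 246 bases. Library pairs of a region correlated at 0.955 to 0.974, and no 2 libraries held identical values. Alternatives were edgeR, DESeq2 1.42.0, other pseudocounts, scalings and calls, no filter, a replicate block and each library left out, and scaling to Aldh1l1 and a cut of 5 RPM in the call were added after seeing the data. The limma comparison of BS with the other regions was tried on simulated data, and the F test, pairs of regions, edgeR and DESeq2 were not. The members, gene lists and tests were chosen with earlier results of these data known. Named genes were all 8 members, up to 6 called further genes per region by smallest p, and the 6 genes most correlated with Dab1, 2 of which are not reported here, while Pik3cb, Apoe, Itga3, Cdk5r1 and Lrp2 were named after their values were seen.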

Additional observations from a re-analysis of the deposited data

How the results depend on the processing

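The Dab1 difference in BS stayed between -3.53 and -3.30 under the 5 other scalings and pseudocounts and between -3.57 and -3.34 with 1 library left out. The number of members called in BS, 1, was 2 with TMM scaling and 2 with the replicate block (Crkl joined Lrp8), 0 with scaling to Aldh1l1 and 1 to 2 with 1 library left out. In HC it was 1 with DESeq2 and 1 with scaling to Aldh1l1, and in CX it was 1 with a mean for each region, where it was 0 otherwise. The count of members that differed among the 4 regions, 2, was 1 without the low-count filter and 1 to 2 with 1 library left out. The 7 called pairs of regions were 4 with scaling to Aldh1l1, 5 with a pseudocount of 0.25, 5 without the low-count filter, 6 with DESeq2, 6 without Rn45s in the total, 9 with the replicate block and 4 to 8 with 1 library left out. The count of further pathway genes in BS, 9, was 4 with scaling to Aldh1l1, 17 with a mean for each region and 4 to 13 with 1 library left out, being 4 without BS replicate 1. In OB, 7 became 4 to 8 with 1 library left out, being 4 without OB replicate 3. In HC, 1 became 2 with DESeq2, 2 with scaling to Aldh1l1, 4 with a mean for each region, 0 with the replicate block, 0 at adjusted p below 0.05 and 0 to 2 with 1 library left out. In CX, 3 became 5 with DESeq2, 9 with a mean for each region, 1 with the replicate block, 0 at adjusted p below 0.05 and 0 to 4 with 1 library left out. The causes were not tested.

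Small differences that were not called changed sign. Scaling to Aldh1l1, under which the median difference of all genes was 0.21 in BS, -0.51 in CX, 0.35 in HC and -0.14 in OB (0.02, -0.03, 0.02 and 0.02 as deposited), gave Vldlr 0.15, Fyn 0.0054 and Pafah1b1 0.034 in BS, Vldlr -0.042, Crk -0.29, Crkl -0.25 and Pafah1b1 -0.32 in CX, Fyn 0.20 in HC and Crk -0.16 in OB. Reads per total without Rn45s, under which that median was 0.12 in BS and -0.22 in CX, gave Vldlr 0.056 in BS and Pafah1b1 -0.020 in CX. DESeq2 gave Vldlr -0.020 in HC and Crk -0.0027 in OB, a mean for each region gave Vldlr -0.032 in HC and Crk -0.019 in OB, and the replicate block gave Crk -0.015 in OB. With 1 library left out the ranges that crossed 0 were -0.20 to 0.038 for Lrp8 in OB, -0.059 to 0.072 for Vldlr and -0.25 to 0.014 for Fyn in HC, -0.029 to 0.25 for Crk in HC, -0.12 to 0.10 for Crk in OB, and -0.20 to 0.18 for Vldlr and -0.46 to 0.11 for Fyn in BS. Leaving out a CX library leaves 1 CX sample, assumed to vary like the other groups.

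For single genes and pairs of regions the other alternatives kept direction and call in 546 cases, lost the call in 31, gained it in 5 and reversed the sign in 16. With each library left out in turn, the matching counts were 523, 60, 4 and 18. Of the members set against the other regions, only Lrp8 in BS was called in the main fit. The kept cases therefore include many results that had no call to lose, and the counts do not give the share of calls that were lost. The cut of 5 RPM is among these alternatives. A cut of 5 RPM in the call, chosen after seeing the data, changed no call of a member, pair or further pathway gene, and gave 1152 calls in BS over all genes in place of 1253. Over all genes, the higher share of BS calls was 552 of 1253 and became 692 of 1273 without Rn45s, and that of CX calls was 142 of 384 and became 62 of 437 without Rn45s and 9 of 412 with scaling to Aldh1l1, while in HC 39 of 178 became 146 of 175 with the latter. Over all regions, same-numbered libraries did not clearly deviate together (15 pairs, correlations of -0.163 to 0.244, 3 over 0.1). The numbers were not taken as pairing in the main fit. Between OB and HC, same-numbered pairs were at 0.194, 0.0717 and 0.244 and the others at -0.220 to 0.0266. Whether same-numbered libraries share an animal or batch was not tested. With the replicate block the limma F test of Reln had adjusted p = 0.00861. Library depth limits the BS values most, where 3 reads are worth up to 6.31.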
